A study of Homo sapiens with 12 samples.

Results

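The transcripts of 10 genes of iron storage, iron uptake and the antioxidant response were followed across knockdown of NELFA, YAP or both. They are FTL, FTH1, TFRC, HMOX1, NQO1, GCLM, GCLC, SRXN1, TXNRD1 and SLC7A11, the 10 members taken by gene symbol from the 58051 genes listed, and each of the 10 was found on 1 row and passed the filter on low counts. FTL was chosen by its rise with siNELFA in these same libraries, so its values in every comparison that uses siControl or siNELFA libraries are given as a description with no test. The cells were MDA-MB-231, an established triple-negative breast cancer line. They were transfected with an siRNA pool against NELFA (siNELFA), a pool against YAP1 (siYAP), both pools (siNELFA+siYAP) or a non-targeting pool (siControl), with 3 libraries in each of the 4 groups. All groups therefore carry transfected siRNA, at 50 to 100 nM per the labels. The labels give harvest at 48 and 72 h without tying a library to either time, and the methods of the study give 72 h. NELFA is a subunit of the negative elongation factor, which holds RNA polymerase II shortly after initiation, and YAP is a coactivator of TEAD transcription factors.

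Ferritin is the shell of light (FTL) and heavy (FTH1) chains in which cells store iron, and TFRC is the transferrin receptor that brings iron in. Iron regulatory proteins, encoded by ACO1 and IREB2, bind hairpins in these mRNAs when iron is scarce, which blocks translation of ferritin and protects the TFRC mRNA from decay. The transcription factor NRF2 (NFE2L2), held low by KEAP1 and opposed by BACH1, binds antioxidant response elements and induces both ferritin chains together with HMOX1, NQO1, GCLM, GCLC, SRXN1, TXNRD1 and SLC7A11.

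The hairpins are shown because they are the sequence feature that sets the ferritin chains and TFRC apart from the other members. A script searched the UTRs of 1 canonical transcript per gene (GENCODE v44, GRCh38) for a C, 5 stem bases, the loop CAGTGN and 5 bases that pair with the stem (G with T allowed). The 5′ UTR of FTL and that of FTH1 held 1 match each and the 3′ UTR of TFRC held 4, while the UTRs of the other 7 members held none. Over all genes the motif was found in 0.0977% of 19441 5′ UTRs and in 0.624% of 19550 3′ UTRs. Each window is 30 bases, 5′ to 3′ on the gene's strand, with the loop in capitals. That of FTL lies in exon 1 of 4 at chr19:48965335-48965364 (+), that of FTH1 in exon 1 of 4 at chr11:61967573-61967602 (-), and those of TFRC in exon 19 of 19 at chr3:196050978-196051007, chr3:196050574-196050603, chr3:196050509-196050538 and chr3:196050462-196050491 (-).
FTL 5′ UTR: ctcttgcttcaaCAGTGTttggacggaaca
FTH1 5′ UTR: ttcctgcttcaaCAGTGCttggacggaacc
TFRC 3′ UTR, a: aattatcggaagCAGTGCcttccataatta
TFRC 3′ UTR, b: cattatcgggagCAGTGTcttccataatgt
TFRC 3′ UTR, c: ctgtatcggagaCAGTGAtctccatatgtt
TFRC 3′ UTR, d: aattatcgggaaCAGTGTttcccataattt

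Matches to the core of the antioxidant response element, TGACNNNGC on either strand, were searched in the 250 bases before each start in RefSeq promoters (GRCh38.p14), where 7 of the 10 members were matched. This core shares its first 4 letters with the AP-1 motif TGACTCA. GCLM held 1 match and TXNRD1 held 1 before each of its 2 starts, while TFRC, GCLC, NQO1, FTL and SRXN1 held none in this window. Of 35116 promoters, 10.9% held a match. A match describes the letters and is not evidence of binding. The windows below have the match in capitals and are written on the gene's strand, at chr1:93909445-93909474 (-), chr12:104215670-104215699 (+) and chr12:104286920-104286949 (+).
GCLM: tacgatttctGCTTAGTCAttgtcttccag
TXNRD1, first start: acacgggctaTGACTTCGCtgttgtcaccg
TXNRD1, second start: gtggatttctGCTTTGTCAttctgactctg

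The libraries held 9608145 to 18803104 counts. NELFA lay at 379 to 419 normalised counts in siControl and at 106 to 148 in siNELFA, with a log2 fold change of -1.64 ± 0.17 (SE; edgeR adjusted p = 0.000385 with the block and 0.381 without it). YAP1 lay at 3710 to 4514 in siControl and 565 to 679 in siYAP, with a log2 fold change of -2.67 ± 0.19 (edgeR adjusted p = 0.0162). The double knockdown held NELFA at 94.5 to 121 and YAP1 at 598 to 654. Replicate 1 of siControl, siNELFA and siYAP stood apart from replicates 2 and 3 of its group, by over 1 on the log2 scale in 18.7%, 14.3% and 16.1% of 12971 genes, against 0.332% in siNELFA+siYAP. Same-numbered libraries of these 3 groups deviated together, and values from a fit that blocks on the number stand beside each member call they change. The methods of the study describe the replicates as independent and biological, 3 in each group, while the library names of the double knockdown carry the number 1 and an index of 1 to 3. The range of sample records given in the paper is also shorter than the 12 libraries, and it does not say which libraries share a record. If these were 3 libraries of 1 culture, the p-values that use them would measure technical spread on that side. The SDs of the double knockdown would then be technical too, and its n = 3 would count libraries. The 6 markers of this line (VIM, CD44, KRT8, KRT18, AXL and CAV1) had at least 1444 counts in every library, while ESR1 and PGR, which this line is known for lacking, had at most 6. ERBB2, which is not amplified in this line, had 422 to 1474. Of 9 markers of other cells, PTPRC, CD3E, CDH5, HBA1, HBB, ALB and APOA1 had at most 4 counts, PECAM1 had 30 to 85 and CD68, which is also a lysosomal protein of many cells, had 822 to 3554. CDH1, likewise a gene known to be silent in this line, had 230, 599 and 169 counts in replicate 1 of siControl, siNELFA and siYAP and at most 17 elsewhere. In bulk RNA, more cells of a type and more RNA per cell cannot be told apart, and the part of CD68 and CDH1 in the results below was not tested.

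Both ferritin chains were among the most abundant transcripts of these cells. Per length (TPM), FTH1 ranked 1 of 19901 protein-coding genes in every group, and FTL ranked 3 in siControl and 2 in the other groups. FTL stood at 4611 ± 375 TPM and FTH1 at 5022 ± 482 TPM in siControl (SD, n = 3). TXNRD1 followed at 475 ± 140, NQO1 at 285 ± 123 and TFRC at 165 ± 64.7 TPM. GCLC, SRXN1 and GCLM lay close together at 63.9 ± 41.5, 57.7 ± 5.18 and 55.7 ± 21.5 TPM, differences smaller than their spread. HMOX1 at 14.5 ± 8.20 and SLC7A11 at 12.4 ± 6.02 TPM were the lowest of the 10 and likewise overlapped.

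**Figure D1:**
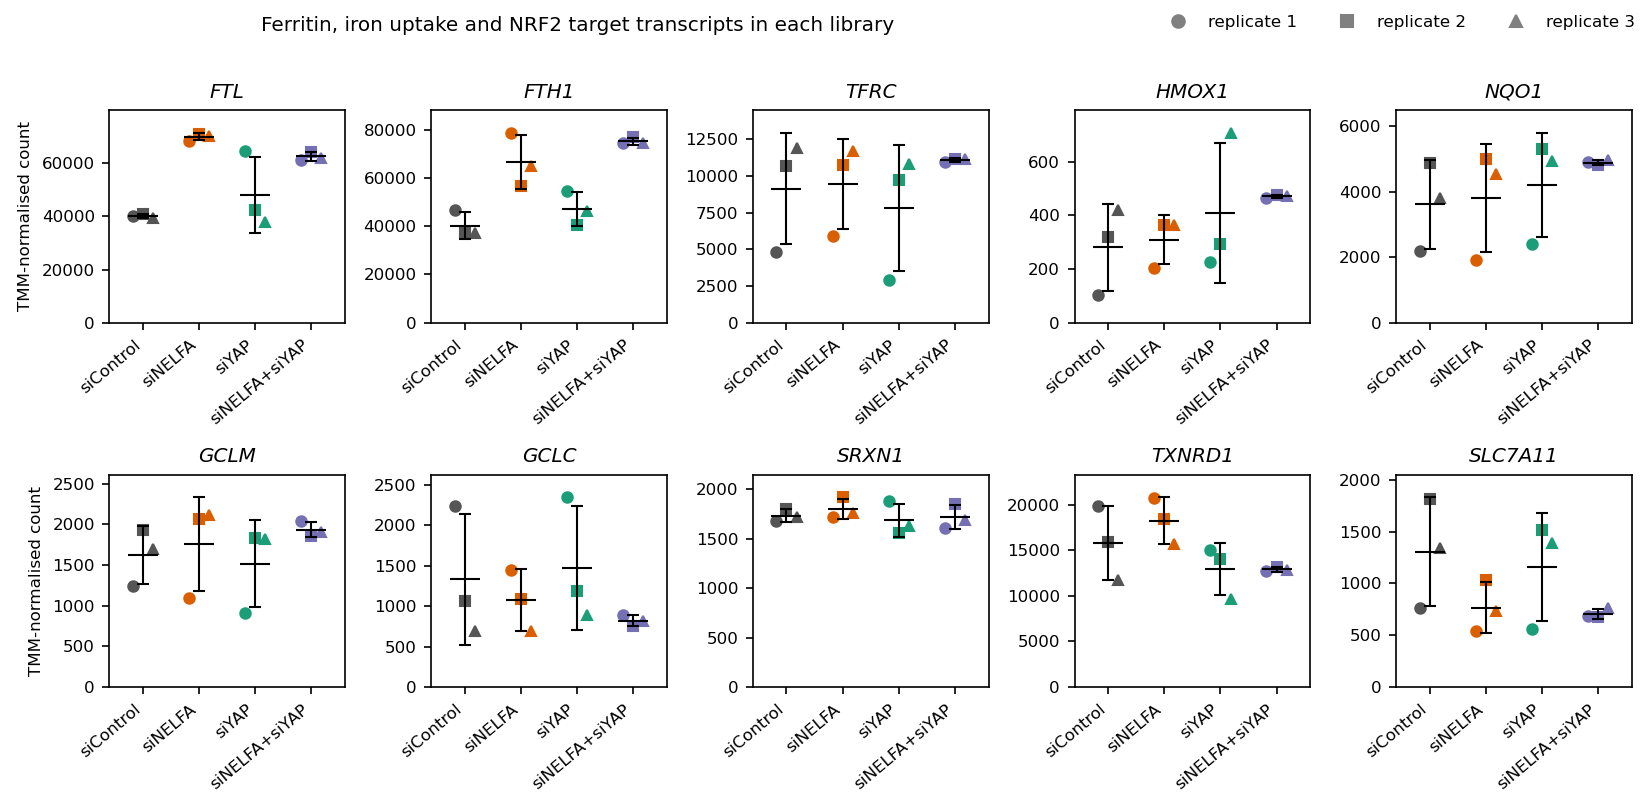
TMM-normalised counts (y axes, linear from 0) of each member in the 12 libraries, by siRNA group; symbols mark replicate numbers, and bars give the mean and SD (n = 3). FTL sits at 39483 to 40849 in siControl and 68545 to 71225 in siNELFA, while TFRC, NQO1, GCLM, GCLC and SLC7A11 are split by replicate 1 in the 3 groups other than siNELFA+siYAP.

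FTL lies at chr19:48965309-48966879 (+). Its normalised counts, which are counts scaled to a common library size by TMM factors, were 40244, 40849 and 39483 in siControl replicates 1 to 3. The siNELFA libraries had 68545, 71225 and 70327, the siYAP libraries 64457, 42233 and 37821, and the double knockdown 61396, 64414 and 61949. Every siNELFA and every double-knockdown library stood above every siControl library, and siYAP replicate 1 stood with the higher groups while replicates 2 and 3 stood near siControl. The log2 fold change was 0.81 ± 0.13 (SE) for siNELFA, 0.27 ± 0.22 for siYAP and 0.64 ± 0.085 for siNELFA+siYAP, each against siControl. Within the pairs of the same number, FTL in siNELFA exceeded siControl by 0.77, 0.80 and 0.83 on the log2 scale. These are the values that chose FTL or share libraries with them, and are not a finding.

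FTH1 lies at chr11:61959718-61967634 (-). It had 46706, 37035 and 36945 normalised counts in siControl and 78542, 56449 and 64767 in siNELFA. In siYAP it had 54350, 40533 and 46229, and in siNELFA+siYAP 74264, 76709 and 74461. The siNELFA libraries stood above those of siControl, where 12.1% of all genes had groups that did not overlap. The siNELFA+siYAP libraries stood above those of siControl (29.7% of all genes) and of siYAP (26.5%). Replicate 1 was the highest library in siControl, siNELFA and siYAP.

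The counts of the heavy and light chains, not scaled for transcript length, had a mean ratio near 1 in siControl and both single knockdowns. FTH1 counts divided by FTL counts gave 1.00 ± 0.14 in siControl, 0.95 ± 0.18 with siNELFA, 1.01 ± 0.19 with siYAP and 1.20 ± 0.0094 in the double knockdown (SD, n = 3). The double-knockdown libraries (1.19 to 1.21) lay above all siControl and siNELFA libraries, whose highest ratio was 1.16, and within the range of siYAP (0.84 to 1.22). Per length (TPM), the ratio was 1.03 to 1.17 in siControl, 0.92 to 1.28 with siNELFA, 0.96 to 1.40 with siYAP and 1.38 to 1.39 with both. Both chains have many processed pseudogenes, which can take some of their reads. The 16 listed FTL pseudogenes summed to 0.277% to 0.321% of the FTL counts of their group, and the 25 listed FTH1 pseudogenes to 1.01% to 1.18% of those of FTH1. The counting options are not given, so reads that match a parent and a pseudogene equally may be in neither count. These shares therefore do not bound the reads lost.

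TFRC (chr3:196012511-196082153, -) split by replicate rather than by siRNA. It had 4820, 10686 and 11914 normalised counts in siControl, 5923, 10740 and 11688 with siNELFA, 2884, 9730 and 10797 with siYAP, and 10940, 11178 and 11151 with both. Replicate 1 was the lowest library in each of the first 3 groups.

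HMOX1 (chr22:35380361-35394214, +) encodes heme oxygenase, which frees iron from heme. It had 102, 319 and 422 normalised counts in siControl, 203, 363 and 364 with siNELFA, 226, 294 and 708 with siYAP, and 466, 476 and 473 with both. The double-knockdown libraries stood above all siControl and siNELFA libraries, and the siYAP libraries lay on both sides of them.

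NQO1 (chr16:69706996-69726668, -), a quinone reductase, had 2171, 4864 and 3793 normalised counts in siControl and 1922, 4983 and 4526 in siNELFA. It had 2395, 5287 and 4936 with siYAP and 4892, 4802 and 4953 with both. The groups overlapped in every comparison, with replicate 1 lowest in the first 3.

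Glutathione synthesis is served by SLC7A11, the cystine transporter, and by GCLC and GCLM, the catalytic and modifier subunits of glutamate-cysteine ligase. SLC7A11 (chr4:138164097-138242349, -) had 762, 1811 and 1343 normalised counts in siControl, 538, 1031 and 732 with siNELFA, 557, 1516 and 1394 with siYAP, and 686, 673 and 765 with both. In siNELFA each library stood below the siControl library of the same number, although the groups overlapped. GCLC (chr6:53497341-53616970, -) had 2243, 1068 and 692 in siControl, 1446, 1086 and 686 with siNELFA, 2343, 1191 and 894 with siYAP, and 886, 751 and 819 with both. GCLC was highest in replicate 1 of the first 3 groups, opposite to GCLM. GCLM (chr1:93885199-93909456, -) had 1239, 1935 and 1693 in siControl, 1091, 2063 and 2110 with siNELFA, 905, 1826 and 1820 with siYAP, and 2039, 1855 and 1909 with both.

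The thioredoxin branch is represented by TXNRD1, thioredoxin reductase, and SRXN1, sulfiredoxin, which restores oxidised peroxiredoxins. TXNRD1 (chr12:104215779-104350307, +) had 19835, 15904 and 11696 normalised counts in siControl, 20745, 18415 and 15658 with siNELFA, 15001, 14073 and 9686 with siYAP, and 12694, 13226 and 12826 with both. Every double-knockdown library stood below every siNELFA library. SRXN1 (chr20:646615-653200, -) was the flattest member, at 1676, 1804 and 1722 in siControl, 1723, 1918 and 1756 with siNELFA, 1878, 1561 and 1628 with siYAP, and 1612, 1855 and 1693 with both. A second gene model on its strand (ENSG00000270299) shares 2292 exon bases with SRXN1 and had 98.8% as many counts, so the reads of SRXN1 are uncertain. The opposite-strand neighbour BEST1 of FTH1 had 0.475% as many counts as FTH1.

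With siNELFA, FTH1 was higher and SLC7A11 lower than in siControl, and neither passed the test without the replicate block. FTH1 rose by a log2 fold change of 0.73 ± 0.083 (SE, n = 3) when the replicate number was a block (edgeR adjusted p = 0.000659), and SLC7A11 fell by 0.73 ± 0.12 (edgeR adjusted p = 0.00476). Without the block the values were 0.73 ± 0.19 for FTH1 and -0.76 ± 0.35 for SLC7A11 (edgeR adjusted p = 1.00 for both). The pairs of the same number gave 0.75, 0.61 and 0.81 for FTH1 and -0.50, -0.81 and -0.88 for SLC7A11. So 0 of the 9 members other than FTL passed at the adjusted threshold of 0.05 and 1 at an unadjusted p under 0.05, while 2 of 9 passed with the block. Over all 17727 genes tested, 0.00564% passed, 4.46% passed unadjusted, and 5.21% passed with the block. DESeq2 called 0 of the 9 and 0.0728% of all genes. The other 7 members gave -0.31 ± 0.46 (GCLC), 0.06 ± 0.38 (TFRC), 0.15 ± 0.49 (HMOX1), 0.09 ± 0.41 (NQO1), 0.12 ± 0.29 (GCLM), 0.06 ± 0.14 (SRXN1) and 0.21 ± 0.23 (TXNRD1). The sign of TFRC, NQO1, GCLM and SRXN1 turned on the TPM scale, where the median of all genes itself lay 0.19 lower in siNELFA. FTH1 was the only one of the 9 whose groups did not overlap, against 12.1% of all genes. Without replicate 1 of both groups, an alternative chosen after seeing the data, FTH1 gave 0.72 ± 0.096 (edgeR adjusted p = 0.0456) and SLC7A11 -0.83 ± 0.19 (edgeR adjusted p = 0.125).

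With siYAP, no member passed. FTH1 differed from siControl by 0.24 ± 0.19, TFRC by -0.21 ± 0.51, HMOX1 by 0.55 ± 0.57, TXNRD1 by -0.28 ± 0.26 and SLC7A11 by -0.16 ± 0.43 on the log2 scale (SE, n = 3; edgeR adjusted p = 1.00 for each). Of the 9 members, 0 passed adjusted, unadjusted, with the block or by DESeq2 in an adjusted test, against 0.00578%, 1.30%, 0.0173% and 0.00314% of all genes. None of the 9 had groups that did not overlap, against 7.80% of all genes.

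**Figure D2:**
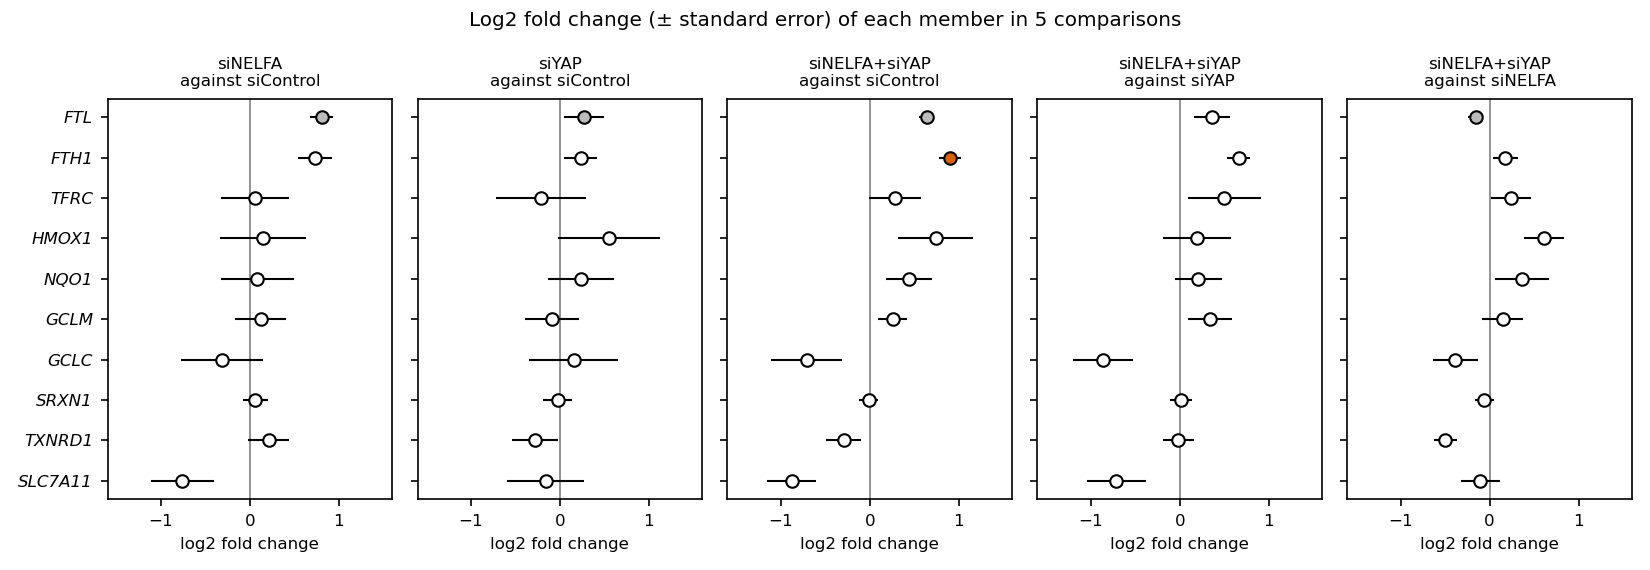
Log2 fold change (x axis) with its standard error for each member in 5 comparisons by edgeR on 6 libraries each. The orange point passed the adjusted threshold, white points did not, and grey points (FTL in comparisons other than that with siYAP) were not tested; FTH1 in siNELFA+siYAP against siControl is the single orange point.

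In the double knockdown FTH1 rose against siControl, by a log2 fold change of 0.90 ± 0.13 (SE, n = 3; edgeR adjusted p = 0.0431), and it was 1 of 9 members called, against 0.428% of all genes. CD68, 1 of the 9 markers of other cells and also a lysosomal protein of many cells, rose by 0.94 ± 0.11 in the same fit (edgeR adjusted p = 0.0317). PECAM1, the only other of these markers with enough counts to be tested, gave -0.08. The part of CD68 in the result was not tested. The unadjusted test passed 2 of 9 (FTH1 higher and SLC7A11 lower), against 18.5% of all genes, and DESeq2 called FTH1 alone, against 5.88%. SLC7A11 differed by -0.88 ± 0.28 (edgeR adjusted p = 0.176). GCLC gave -0.71 ± 0.40, HMOX1 0.74 ± 0.42, NQO1 0.44 ± 0.26, TFRC 0.28 ± 0.29, GCLM 0.26 ± 0.17, TXNRD1 -0.30 ± 0.19 and SRXN1 -0.01 ± 0.11. FTH1 and HMOX1 had groups that did not overlap, 2 of 9 against 29.7% of all genes. The FTH1 call was lost with the replicate block (0.91 ± 0.14, edgeR adjusted p = 0.194), although the numbers do not pair the double knockdown, on leaving out any 1 library other than siControl replicate 1 (edgeR adjusted p = 0.057 to 0.389) and by limma on log2(TPM + 1) (adjusted p = 0.112). Without siControl replicate 1, SLC7A11 fell by 1.14 (edgeR adjusted p = 3.26e-06) and HMOX1 rose by 0.36 (edgeR adjusted p = 0.0441). In that fit 4531 of all 18587 genes were called, against 0 to 126 on leaving out any other single library. The comparisons of siNELFA, siYAP and siNELFA+siYAP share the same siControl libraries, so their values are not independent of each other.

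Against siYAP, the double knockdown offers a view of NELFA depletion outside the siNELFA and siControl libraries in which FTL rose. The members were chosen with earlier results of these data known, so this view is not independent of their choice. None of the 10 members passed, against 0.0350% of all genes. The unadjusted test passed 2 of 10 (FTH1 higher and GCLC lower), against 15.5%. FTL differed by 0.36 ± 0.20 (edgeR adjusted p = 0.424), FTH1 by 0.66 ± 0.13 (edgeR adjusted p = 0.131), SLC7A11 by -0.71 ± 0.33 (edgeR adjusted p = 0.347), GCLC by -0.87 ± 0.34 (edgeR adjusted p = 0.290), TFRC by 0.50 ± 0.41 and GCLM by 0.34 ± 0.25. DESeq2 called FTH1 (0.67 ± 0.17, adjusted p = 0.00572), 1 of 10 against 3.32% of all genes, and without a filter on low counts its edgeR adjusted p was 0.0150. Without siYAP replicate 1 the values were 0.65 ± 0.059 for FTL (edgeR adjusted p = 4.43e-05), 0.79 ± 0.055 for FTH1 (edgeR adjusted p = 8.1e-06) and -1.04 ± 0.089 for SLC7A11 (edgeR adjusted p = 3.15e-05). In that fit 2937 of all 17773 genes were called, and the library left out had the highest FTL of its group (64457 normalised counts). Leaving out any other single library called 0 to 24 genes. FTH1, TFRC, GCLM and GCLC had groups that did not overlap, 4 of 10 against 26.5% of all genes.

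With siYAP added to siNELFA, no member passed the test against siNELFA alone. FTL differed between siNELFA+siYAP and siNELFA by -0.16 ± 0.085 (a description), FTH1 by 0.18 ± 0.14, HMOX1 by 0.61 ± 0.22, TXNRD1 by -0.50 ± 0.12 and SLC7A11 by -0.11 ± 0.22 (SE, n = 3). Of the 9 members other than FTL, 0 passed adjusted and 2 unadjusted (HMOX1 higher and TXNRD1 lower), against 0.00573% and 6.62% of all genes, and DESeq2 called 0 of 9 against 0.286%. HMOX1 and TXNRD1 had groups that did not overlap, 2 of 9 against 15.1%. Without siNELFA replicate 1, TXNRD1 fell by 0.39 (edgeR adjusted p = 0.0148) and FTH1 rose by 0.32 (edgeR adjusted p = 0.0206). In that fit 228 of all 18286 genes were called, against 1 gene on leaving out any other single library. The difference of the siNELFA effect with and without siYAP was tested over all 12 libraries and called no gene by edgeR (0.00% of 18525, 1.76% unadjusted, 0.00% by DESeq2). That difference was -0.06 ± 0.22 for FTH1 and 0.05 ± 0.53 for SLC7A11.

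For TFRC, HMOX1, NQO1 and GCLM, the gap between replicate 1 and the other replicates of the first 3 groups was larger than the log2 fold change in each of the 5 comparisons. The log2 level of replicate 1 minus the mean of replicates 2 and 3 was -1.23, -0.92 and -1.83 for TFRC in siControl, siNELFA and siYAP. In the same order it was -1.84, -0.84 and -1.01 for HMOX1, -0.98, -1.30 and -1.09 for NQO1, -0.55, -0.94 and -1.01 for GCLM, and -1.03, -0.69 and -1.38 for SLC7A11. It was positive for GCLC (1.38, 0.74 and 1.18), TXNRD1 (0.54, 0.29 and 0.36) and FTH1 (0.34, 0.38 and 0.33). For FTL it was 0.00, -0.05 and 0.69. In siNELFA+siYAP the shift stayed between -0.14 and 0.18 in the 10 members. NRF2 targets lay on both sides of 0. Replicate 1 of these groups also held most CDH1 counts, and only there was MALAT1 the gene with the most counts (4.41%, 3.14% and 3.18% of the library). KRT8 and KRT18 did not rise with CDH1. They had 1444 and 1466 counts in siControl replicate 1 (9608145 in total) against 3975 and 3230 in replicate 2 (17817083 in total). The part of these differences in the results was not tested.

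**Figure D3:**
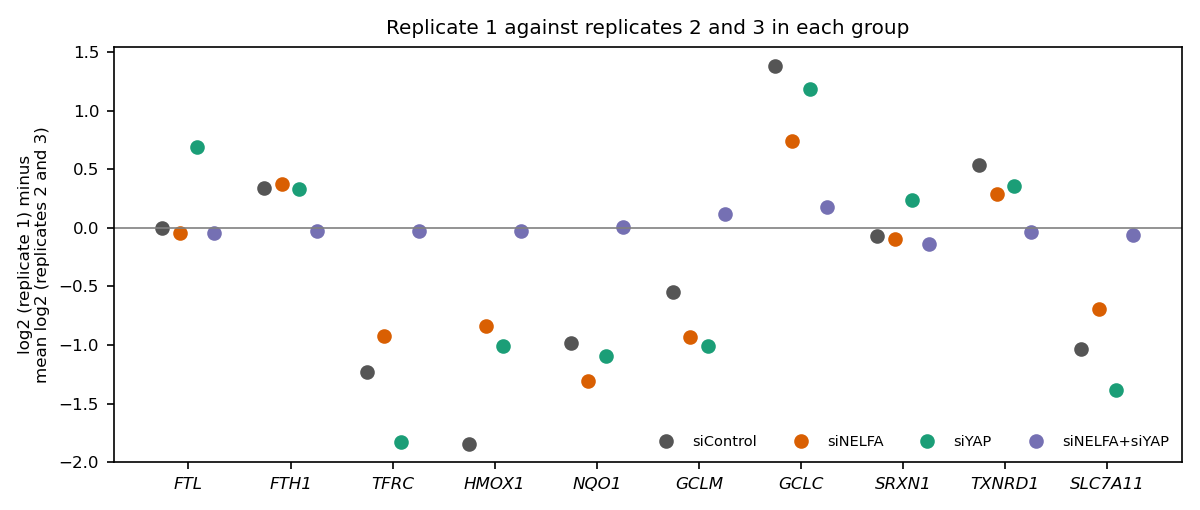
Difference (y axis, log2 units) between replicate 1 and the mean of replicates 2 and 3 for each member (x axis), coloured by siRNA group, with 1 point per group. TFRC, HMOX1, NQO1, GCLM and SLC7A11 lie below 0 and GCLC and TXNRD1 above 0 in siControl, siNELFA and siYAP, while the siNELFA+siYAP points stay between -0.14 and 0.18.

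No regulator of ferritin or NRF2 passed the test without the block. In siNELFA against siControl the log2 fold changes were -0.04 ± 0.24 for NFE2L2, 0.24 ± 0.26 for its repressor KEAP1, 0.01 ± 0.16 for the ubiquitin ligase scaffold CUL3 and -0.06 ± 0.36 for BACH1. The iron sensors gave -0.44 ± 0.31 for ACO1, -0.18 ± 0.17 for IREB2 and -0.19 ± 0.37 for FBXL5, which degrades IREB2, and NCOA4, the ferritin autophagy receptor, gave 0.11 ± 0.20. In siNELFA+siYAP against siControl, ACO1 gave -0.78 ± 0.24, FBXL5 -0.47 ± 0.26 and NFE2L2 -0.34 ± 0.19, and by DESeq2 ACO1 was called (adjusted p = 0.0474).

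The wider pathways were read from 5 lists, of which edgeR called no gene in any of the 5 comparisons without the block. With the block, 16 genes besides the members passed in siNELFA against siControl. Of 22 tested iron handling genes, SLC39A14, a metal importer (0.55 ± 0.11), and BLVRB, a biliverdin reductase (0.63 ± 0.13), rose and ACO1 (-0.42 ± 0.092) fell, with a list median of 0.04. Of 13 regulators of NRF2 and its partners, NFE2L1 (0.46 ± 0.087), the small MAF proteins MAFF (0.62 ± 0.12) and MAFK (0.75 ± 0.18), the autophagy receptor SQSTM1 (0.46 ± 0.085) and DPP3 (0.71 ± 0.15), the latter pair binding KEAP1, rose and none fell, with a median of 0.28. Of 29 tested other NRF2 targets, 3 rose, among them AKR1B1 (0.41 ± 0.088) and EPHX1 (0.63 ± 0.11), with a median of 0.10.

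Of 23 glutathione, thioredoxin and superoxide enzymes, the peroxiredoxin PRDX5 (0.42 ± 0.10) and the mitochondrial superoxide dismutase SOD2 (0.54 ± 0.13) rose and the glutaredoxin GLRX fell by 0.60 ± 0.14, with a median of 0.06. Of 13 ferroptosis genes, SLC3A2, the partner chain of SLC7A11 (0.63 ± 0.12), and SAT1, which acetylates polyamines (0.55 ± 0.12), rose, with a median of 0.12. The shares called were 3 of 22, 5 of 13, 3 of 29, 3 of 23 and 2 of 13, beside 5.21% of all genes and a median of 0.01 over all genes. CD68 rose by 0.63 ± 0.10 in the same fit, while PECAM1, the only other marker of other cells tested, gave -0.08. DESeq2 called 3 of 25 iron handling genes, 2 of 13 NRF2 regulators, 3 of 23 glutathione, thioredoxin and superoxide enzymes, 1 of 13 ferroptosis genes and 0 of 29 tested other NRF2 targets in siNELFA+siYAP against siControl, beside the 5.88% of all genes given above. The ferroptosis gene, named after its value was seen, was PTGS2, a prostaglandin synthase, which rose by 1.88 ± 0.32 (DESeq2 adjusted p = 2.13e-06). The lists were chosen with earlier results known and their shares are given as counts only.

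Among the 5 genes whose log2 CPM over the 12 libraries resembled FTL most, of 12971 genes averaging at least 50 counts, were RNF5 (Pearson r = 0.93), NFE2L1 (0.92), YIF1A (0.92) and TPRA1 (0.91). FTH1 ranked 72 (r = 0.84) and SLC7A11 ranked 12667 of 12971 (r = -0.75), while TFRC, HMOX1, NQO1, GCLM and GCLC lay between -0.10 and 0.04. These correlations describe 12 libraries that fall into 4 groups and share depth and replicate shifts, and carry no p. On the TPM scale the r of NFE2L1 was 0.54 and that of RNF5 0.87.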

How the data were processed

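MDA-MB-231 RNA was sequenced from rRNA-depleted stranded libraries. The authors aligned the reads with STAR to GRCh38 (Ensembl release 87) and featureCounts assigned them to genes. The counts deposited are unnormalised whole numbers, and the options and strand setting of the counting are not given in the sources used here. Between 371 and 456 genes per library had a count of 1 and 2861 to 3202 a count of 2, so both reads of a pair appear to have been counted and counting error is larger than the counts imply. The deposited TPM values were made by the authors per library (Cufflinks is named in the submitters' processing notes) and were used for levels and as an alternative, after dropping 93 identifiers listed on several lines. An FPKM table was not used, since rescaling it gives the TPM.

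Counts were compared by edgeR 4.0.16 (quasi-likelihood, TMM) in R 4.3.3 on the 6 libraries of both groups, after filterByExpr (minimum count 10, total 15, proportion 70%), with Benjamini-Hochberg adjustment over all tested genes and a threshold of 0.05. The difference of the siNELFA effect used 12 libraries. A standard error is the log2 fold change divided by the square root of the F statistic. Alternatives were DESeq2 1.42.0, RLE factors, no filter, 1 fit of all libraries, the replicate block, limma 3.58.1 on log2 of TPM (at least 1 in 3 libraries) plus 1 or 0.1, and leaving out each library. Deviations of same-numbered libraries, numbered in the labels, correlated over 12971 genes (r from 0.638 to 0.885) within siControl, siNELFA and siYAP but not with siNELFA+siYAP (r from -0.0533 to 0.0276), so the numbers pair the first 3 groups only. The scripts were tested on simulated data.

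Named are the 10 members, both siRNA targets, 8 regulators, list genes past the adjusted threshold (also with the block), and the 5 genes most like FTL. Some results for single genes under this rule are not reported here. The members and lists were chosen with earlier results of these data known. BEST1, PTGS2, CD68, PECAM1, MALAT1 and CDH1 were named after their values were seen. Coordinates and UTRs are from GENCODE v44 and promoters from RefSeq, where FTH1, HMOX1 and SLC7A11 were not matched. Figures were drawn with matplotlib 3.10.9.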

Additional observations from a re-analysis of the deposited data

How the results depend on the processing

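A tested member value counts as the same under an alternative if it kept its direction and its side of the threshold. FTL values that were not tested count as the same if they moved by less than the spread, whatever their side. Of 531 member values under the alternatives, 463 were the same, 42 changed sign, 12 passed only under the alternative, 8 no longer passed and 6 moved by more than the spread. The cause of these changes was not tested unless the alternative itself removes libraries or genes. Depth was not compared with the spread between libraries as a limit.

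In siNELFA against siControl, 1 gene was called, and 17 by DESeq2, 3 without a filter on low counts, 924 with the replicate block, 8 with all 12 libraries in one fit, 4 by limma on log2(TPM + 1) or log2(TPM + 0.1), 18 without replicate 1 of both groups (chosen after seeing the data) and 0 to 1 when each library was left out in turn. In siYAP against siControl, 1 gene was called, and 3 with the replicate block or by limma on either TPM scale, and 0 to 1 on leaving out a library. In siNELFA+siYAP against siControl, 75 genes were called, and 935 by DESeq2, 381 without a filter on low counts, 2 with the replicate block, 20 and 19 by limma with pseudocounts of 1 and 0.1, and 0 to 4531 on leaving out a library (4531 without siControl replicate 1). Against siYAP, 6 genes were called, and 504 by DESeq2, 222 without a filter, 1 with the replicate block and 0 to 2937 on leaving out a library (2937 without siYAP replicate 1). Against siNELFA, 1 gene was called, and 49 by DESeq2, 26 without a filter, 6 by limma on either TPM scale and 1 to 228 on leaving out a library (228 without siNELFA replicate 1).

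With the replicate block, FTH1 (0.73) and SLC7A11 (-0.73) passed in siNELFA against siControl, and FTH1 in siNELFA+siYAP against siControl (0.91) no longer passed (edgeR adjusted p = 0.194), although the numbers do not pair the double knockdown. The block changed the call of no other tested member.

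None of the log2 fold changes that changed sign passed the test. In siNELFA against siControl, limma on either TPM scale gave -0.17 for TFRC, -0.15 for NQO1, -0.14 for GCLM and -0.17 for SRXN1. Leaving out each library in turn gave TFRC -0.25 to 0.30, HMOX1 -0.24 to 0.56, NQO1 -0.17 to 0.40, GCLM -0.04 to 0.37 and GCLC -0.62 to 0.30, and leaving out replicate 1 of both groups gave HMOX1 -0.01 and GCLC 0.02. In siYAP against siControl, leaving out each library gave TFRC -0.51 to 0.18, HMOX1 -0.10 to 0.96 and SLC7A11 -0.42 to 0.17. In siNELFA+siYAP against siControl it gave TFRC -0.02 to 0.52 and SRXN1 -0.06 to 0.04, and SRXN1 was 0.00 with all 12 libraries in one fit. Against siNELFA, SLC7A11 gave 0.12 and 0.15 by limma with pseudocounts of 1 and 0.1, and -0.30 to 0.16 on leaving out a library. The difference of the siNELFA effect gave FTH1 -0.18 to 0.08 and SLC7A11 -0.27 to 0.32 on leaving out a library, and 0.06 and -0.21 without replicate 1 of siControl, siNELFA and siYAP, chosen after seeing the data.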
